A study of Mus musculus with 4 samples.

Results

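Cyclins and cyclin-dependent kinases (CDKs) other than the pair that drives meiotic division were followed through oocyte maturation in the mouse. The genes were taken by symbol, as every symbol made of Cdk and a number (with or without a letter) or of Ccn, a letter and an optional number, leaving out Cdk1, Ccnb1, Ccnb2 and Ccnb3. This gave 39 of the 23309 gene symbols measured, 18 of them CDKs and 21 cyclins. They were sorted by known role into 11 cell-cycle genes, 14 transcriptional genes and 14 others.

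A CDK is typically inactive until a cyclin binds it. Cell-cycle cyclins are made and destroyed at set points of each division: D cyclins with CDK4 and CDK6 in G1, E and A cyclins with CDK2 around DNA replication, and A and B cyclins with CDK1 at division. A second branch of the family phosphorylates RNA polymerase II and its regulators, and its cyclins (C, H, K, L and T) vary little through the cycle. A fully grown oocyte makes almost no new mRNA and does not replicate its DNA between the meiotic divisions, so its transcripts of both branches are stored maternal mRNA.

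The study used oocytes of ICR mice, wild type or labelled Erk-/-, collected from females 21 to 23 days old after injection of the gonadotropins PMSG and hCG. The stages were GV, the immature oocyte with an intact germinal vesicle, and MII, the mature egg at metaphase of meiosis II. Each of the 4 combinations of genotype and stage was 1 library of 60 cells lysed together, so no group has a replicate, and every difference below sets 1 library against 1 and was not tested. The titles do not say which hormone applied to which library, which Erk gene or which exons were deleted, or which promoter drove any deletion, and the females of the treatment text are Btg4-/-, not Erk-/-. Values are the FPKM that the authors deposited, a fragment count scaled by transcript length and library total. FPKM does not measure mRNA per oocyte, and in such bulk samples fewer cells that hold a transcript and less of it per cell cannot be told apart.

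The check of the genotype came out mixed for Mapk3, since its direction differed between the stages. Mapk3, which encodes ERK1, had 333 FPKM in wild type and 52.3 in labelled Erk-/- at GV, then 25.7 and 34.3 at MII. Since Mapk3 was not lower at MII, the mutant libraries are called labelled Erk-/- throughout. All 10 oocyte markers were above 0 in every library, with summed levels of 12532 to 18807 FPKM. The 12 granulosa and cumulus markers summed to 12.8 to 28.4 FPKM, with 8 or 9 of them at 0, and the 10 markers of other ovarian and blood cells to 27.1 to 64.3 FPKM, nearly all of it Pecam1. Amh, Fshr and Foxl2 were at 0 in all 4 libraries, and so was Ccnd2, the D cyclin known from granulosa cells, while Cyp19a1 reached 21.8, Nr5a2 17.0 and Inha 11.3 FPKM.

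Of the 39 genes, 24 reached 10 FPKM in at least 1 library and 15 did not. In 4 genes (Ccna1, Ccnd2, Cdk6 and Cdk18) all 4 libraries were listed at 0. Another 10 were listed at 0 in 1 to 3 libraries, and an exact 0 in such a table can be a failed estimate, so no fold is given against it. Ratios between libraries were taken as log2((FPKM + 1)/(FPKM + 1)) over the 9990 genes whose mean reached 1 FPKM, among them 33 of the 39. Genes whose ratio reached 2-fold on this scale are counted as higher or lower, which is a rule of size and not a test. Folds and percentages of single genes use the plain FPKM. Where 4 values stand in a row, their order is wild-type GV, labelled Erk-/- GV, wild-type MII, labelled Erk-/- MII. Ranges in brackets after a value are the authors' lower and upper bounds, which cover uncertainty within a library only.

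**Figure D1:**
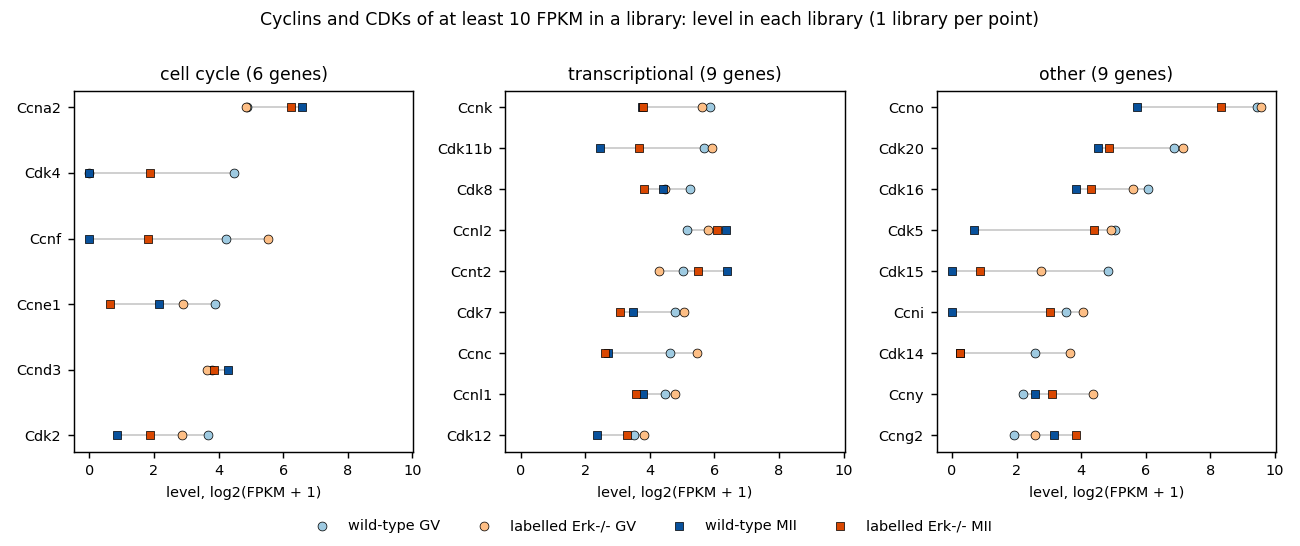
Level of the 24 genes that reached 10 FPKM in a library, as log2(FPKM + 1) on the horizontal axis, by class, with 1 point per library (circles GV, squares MII, blue wild type, orange labelled Erk-/-) and grey lines spanning the 4 values. Ccno is the highest point in the plot at GV, and Ccna2, Ccnl2 and Ccnt2 have their highest value in wild-type MII.

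The 3′ ends of these mRNAs are shown first, because stored oocyte mRNAs are polyadenylated or left with short tails through elements near that end. The cytoplasmic polyadenylation element, bound by CPEB1, was searched as TTTTAT or TTTTAAT, and the polyadenylation signal as AATAAA or ATTAAA, in the last 100 bases of 1 annotated mRNA per gene and on the mRNA strand only. TTTTAAT can overlap AATAAA, as it does in Ccne1. The last 30 bases are given 5′ to 3′ for 3 genes that were higher at MII in wild type (Ccna2, Ccnt2, Ccnl2), for 3 that were lower (Ccno, Cdk5, Ccne1) and for Ccnl1, with every match in capitals.
Ccna2: tgtaAATAAAgcatgcaaattaacccttta
Ccnt2: attAATAAAgtttgtttattgacaaccaaa
Ccnl2: ccctgttctcATTAAAgtgttagattttgt
Ccno: gcagtAATAAAtattatactatttgcaaca
Cdk5: ctgtttctaAATAAAcaagatataaaaagg
Ccne1: atTTTTAATAAAgataatactatctttgaa
Ccnl1: gaAATAAAatacaaatcttgtTTTTATaaa
These lie, in GENCODE M21 on GRCm38, at chr3:36564865-36564894 (minus strand), chr1:127808032-127808061 (plus), chr4:155824514-155824543 (plus), chr13:112990748-112990777 (plus), chr5:24418241-24418270 (minus), chr7:38097984-38098013 (minus) and chr3:65946151-65946180 (minus), in the same order.

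All 7 carry a polyadenylation signal in these 30 bases, and the element is found in Ccne1 and, after the signal, in Ccnl1. Over the 39 genes, 30 had a signal in the last 100 bases (76.9%, against 77.4% of 19833 genes) and 8 had an element (20.5%, against 17.7%), namely Ccne1, Ccnl1, Ccnt1, Cdk2, Cdk9, Cdk13, Cdk19 and Cdk20. By class this was 2 of 11 cell-cycle, 5 of 14 transcriptional and 1 of 14 other genes. Among all tested genes with such a window, the 1492 with both element and signal had a median log2 ratio of MII to GV of 0.50 in wild type, and the other 7287 had -1.28. Among the tested cyclins and CDKs, the 6 with both had a median of -1.21 and the other 27 had -1.15. These 6 are too few to show whether the family splits in this way. The annotated end need not be the end used in oocytes, and a match is a run of letters and not a shown site.

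At GV, a single cyclin outweighed the rest of the family. Ccno encodes cyclin O, known from oocytes and from cells that build many cilia (mm9 chromosome 13, 113778010 to 113780986). Its GV levels were 700 FPKM in wild type and 751 in labelled Erk-/-, where it ranked 60th and 49th of all symbols. That was 50.5% and 51.6% of the summed FPKM of all 39 genes. The next was Cdk20, a kinase gene linked to cilia (chromosome 13, 64533861 to 64541029), at 115 and 141 FPKM. After it at GV in wild type came Cdk16 (66.7 in wild type and 47.3 in labelled Erk-/-), a PCTAIRE kinase that works with cyclin Y, Ccnk (57.2 and 47.9) and Cdk11b (50.5 and 59.6).

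The cell-cycle genes stood below these at GV, led by Ccna2 (then Cdk4) in wild type and by Ccnf (then Ccna2) in labelled Erk-/-. Ccna2, whose protein activates CDK2 and CDK1 (chromosome 3, 36463787 to 36470918), stood at 28.6 FPKM (26.4 to 30.9) in wild type and 27.7 (25.3 to 30.1) in labelled Erk-/-. Its germline relative Ccna1 was listed at 0 in all 4 libraries. Cdk2, their kinase partner, had 11.7 and 6.23 FPKM. Of the D cyclins, Ccnd3 had 13.0 and 11.5 FPKM and Ccnd1 0.976 and 0.

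Maturation in wild type separated the cyclin A2 transcript from its kinase. Ccna2 had 28.6 FPKM at GV and 94.3 at MII (90.4 to 99.1), 3.29-fold higher, while Cdk2 (chromosome 10, 128134995 to 128142107) had 11.7 (10.3 to 13.1) and 0.792 (0.417 to 1.17), 14.8-fold lower. The bounds of the stages do not meet in either gene. Ccna2 overlaps the locus of Exosc9, whose wild-type levels were 21.2 FPKM (GV) and 0 (MII). Whether the libraries kept strand is not given in the sources used here, so reads of the overlap cannot be assigned. The same holds for Ccnd3, which overlaps Bysl (3.50 to 11.5 FPKM), and for Ccne2, which overlaps Ints8 (7.01 to 24.1 FPKM).

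The remaining cell-cycle genes went in different directions in wild type. Ccne1, the cyclin of entry into DNA replication, went from 13.7 FPKM (11.3 to 15.7) to 3.46 (2.52 to 4.37), 3.96-fold lower. Its relative Ccne2 was listed at 0 at GV and had 2.42 FPKM at MII. Ccnd3 had 13.0 and 18.6 FPKM, less than 2-fold apart. Ccnf, whose protein is the F-box subunit of a ubiquitin ligase and binds no CDK, had 17.6 FPKM at GV and was listed at 0 at MII. Cdk4, the kinase of D cyclins, had 21.4 FPKM at GV (16.8 to 23.5) and was likewise listed at 0 at MII. Summed over class, the 3 cell-cycle CDKs went from 33.1 to 0.792 FPKM, and the 8 cell-cycle cyclins from 73.9 to 119, of which Ccna2 made up 79.4%.

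In the libraries labelled Erk-/-, Ccna2 was also higher at MII. It had 27.7 FPKM at GV and 74.6 at MII (71.1 to 78.7), 2.69-fold higher, and Ccne2 was listed at 0 at GV and had 1.87 FPKM at MII. Cdk2 had 6.23 FPKM (5.02 to 7.44) and 2.64 (1.95 to 3.36), 2.36-fold lower, which on the scale with 1 FPKM added (log2 -0.99) lies just short of the 2-fold rule. Ccne1 was 11.8-fold lower (6.54 and 0.556 FPKM) and Ccnf 17.6-fold lower (45.0 and 2.56 FPKM). Both were lower at MII in either genotype. Cdk4 was listed at 0 at GV and had 2.69 FPKM at MII, the opposite order to wild type.

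**Figure D2:**
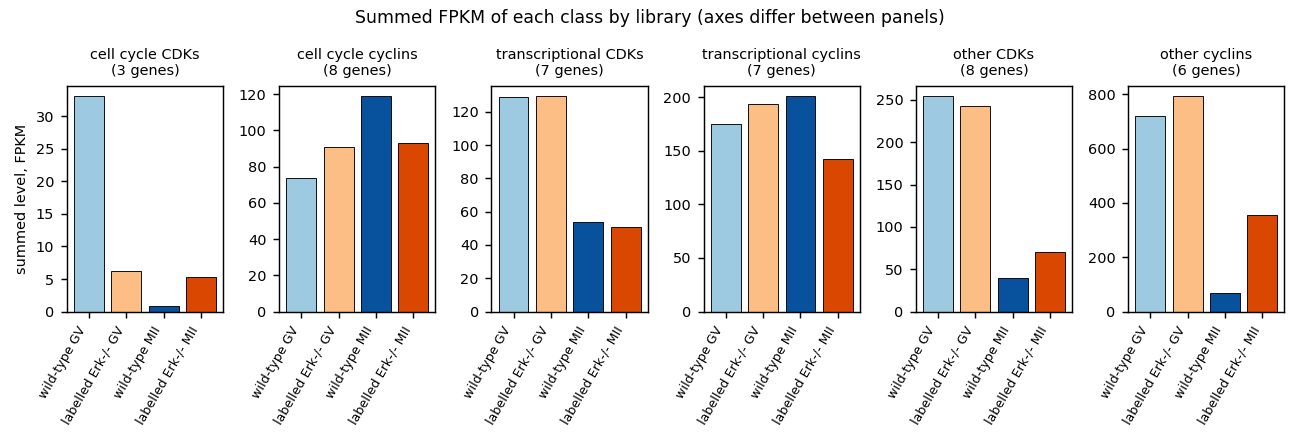
Summed FPKM of the genes of each class in each library, CDKs and cyclins apart, 1 bar per library and axes that start at 0 and differ between panels. In wild type the cell-cycle cyclins stood at 161% and the transcriptional cyclins at 115% of their GV sum. The CDKs of these classes stood at 2.40% and 41.5%, with Cdk4 listed at 0 at MII. In labelled Erk-/- the cyclins stood at 103% and 73.8% and the CDKs at 85.6% and 39.5%. There Cdk4 is listed at 0 at GV, and Cdk2 alone stood at 42.4% of its GV level.

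The transcriptional branch is described by its complexes. CDK7 with cyclin H and the assembly factor MNAT1 is the kinase of the general factor TFIIH and also activates other CDKs. Cdk7 had 26.2 FPKM (24.8 to 27.7) in wild type and 32.3 (30.5 to 34.1) in labelled Erk-/- at GV, then 10.1 (9.37 to 10.9) and 7.45 (6.79 to 8.10) at MII. Both MII libraries thus lay below both GV libraries, 2.59-fold in wild type and 4.33-fold in labelled Erk-/-. Its partner Ccnh was low throughout, at 1.56, 0, 3.23 and 1.55 FPKM in that order, and Mnat1 had 4.98, 35.1, 0 and 3.29.

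CDK8, or its close relative CDK19, and cyclin C form the kinase module of Mediator, the bridge between transcription factors and polymerase. Cdk8 had 36.8 FPKM in wild type and 21.1 in labelled Erk-/- at GV, then 20.2 and 13.0 at MII. It was less than 2-fold apart in all 4 comparisons of libraries. Ccnc had 23.4 (20.6 to 26.1), 43.2 (39.0 to 47.4), 5.49 (4.25 to 6.72) and 5.12 (3.88 to 6.37) FPKM in the same order. So the cyclin was 4.26-fold lower at MII in wild type and 8.44-fold lower in labelled Erk-/-, and its levels at MII had overlapping bounds. Cdk19 did not exceed 1.10 FPKM, and of the module's Med12, Med12l, Med13 and Med13l, only Med13 reached 10 FPKM (12.7 in wild-type MII and 10.4 in labelled Erk-/- MII).

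CDK9 with cyclin T is P-TEFb, which releases paused polymerase. Ccnt2 (chromosome 1, 129670741 to 129701414) had 31.5 FPKM (28.5 to 33.5) in wild type and 18.5 (16.3 to 20.3) in labelled Erk-/- at GV, then 82.6 (76.3 to 84.5) and 44.0 (40.1 to 45.5) at MII. It was 2.62-fold higher at MII in wild type and 2.38-fold higher in labelled Erk-/-, and lower in labelled Erk-/- at both stages (1.70-fold at GV and 1.88-fold at MII). Cdk9 had 1.35, 0, 5.21 and 5.69 FPKM in the same order, and Ccnt1 5.17, 2.74, 2.82 and 1.22. Ccnt2 was therefore the T cyclin of higher level in all 4 libraries, and the P-TEFb kinase was, like it, higher at MII.

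Cyclin K serves CDK12 and CDK13, which phosphorylate elongating polymerase. Ccnk had 57.2 FPKM (51.2 to 58.7) in wild type and 47.9 (42.5 to 50.2) in labelled Erk-/- at GV, then 12.7 (10.8 to 14.1) and 12.8 (11.0 to 14.3) at MII. The MII levels had overlapping bounds, and the maturation ratio was 4.52-fold lower in wild type and 3.73-fold lower in labelled Erk-/-. Cdk12 had 10.5, 13.1, 4.17 and 8.82 FPKM, and Cdk13 3.38, 3.15, 8.23 and 4.23, so that in wild type the order of these kinases at MII was the reverse of that at GV.

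CDK11 and the L cyclins act in splicing. Cdk11b (chromosome 4, 154998978 to 155024041) had 50.5 FPKM (45.0 to 52.3) in wild type and 59.6 (53.1 to 61.6) in labelled Erk-/- at GV, then 4.49 (3.58 to 5.38) and 11.8 (9.96 to 12.9) at MII. Ccnl2 (chromosome 4, 155186598 to 155198652) had 34.4, 54.4, 81.0 and 67.0 FPKM, 2.36-fold higher at MII in wild type and 1.23-fold higher in labelled Erk-/-. Ccnl1 had 21.4, 26.4, 12.7 and 10.8 FPKM. In wild type the kinase was thus 11.2-fold lower at MII while 1 of its cyclins was higher and the other 1.68-fold lower, and the ratio of Ccnl2 to Cdk11b went from 0.681 to 18.1 (0.912 to 5.70 in labelled Erk-/-).

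**Figure D3:**
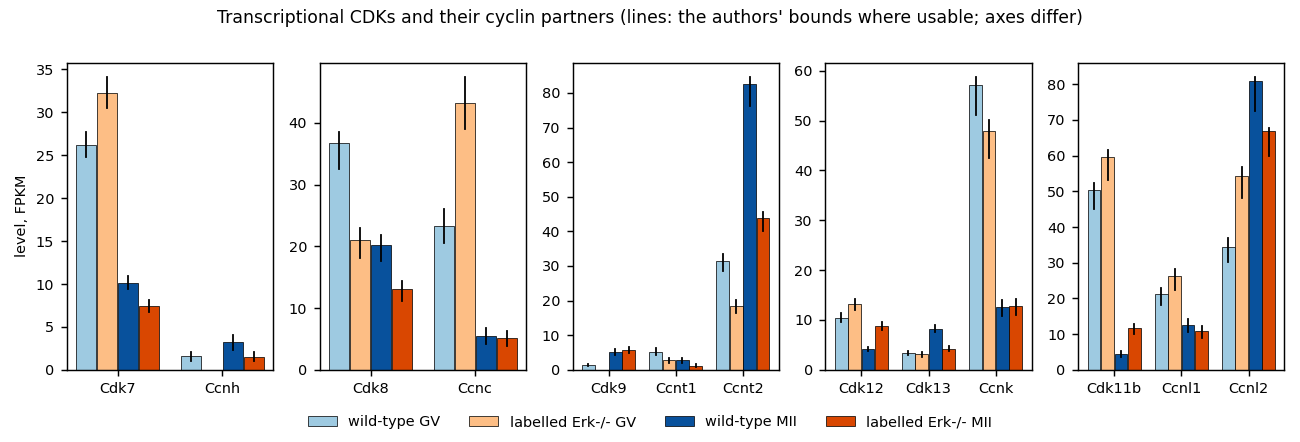
FPKM of the transcriptional CDKs and their cyclin partners, 1 panel per complex and 1 bar per library, with vertical lines for the authors' bounds and axes that start at 0 and differ between panels. Ccnt2 and Ccnl2 are highest in wild-type MII, while Cdk7, Cdk8, Cdk11b, Cdk12, Ccnc, Ccnk and Ccnl1 are lower in both MII libraries than in both GV libraries.

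Among the other kinases and cyclins, Ccno and Cdk5 were far lower in wild-type MII than in the remaining libraries. Ccno had 700 FPKM in wild type and 751 in labelled Erk-/- at GV, then 51.6 (44.5 to 52.6) and 321 at MII. The GV values were close, and the MII value was 13.6-fold below GV in wild type and 2.34-fold below it in labelled Erk-/-. Cdk5 (chromosome 5, 23924060 to 23929348), a kinase best known from neurons, where p35 proteins activate it, had 32.0 FPKM (27.4 to 33.7) in wild type and 29.1 (24.6 to 31.2) in labelled Erk-/- at GV, then 0.608 (0.300 to 0.900) and 20.1 (17.0 to 21.6) at MII. Only wild-type MII stood apart, at 1.90% of its GV level, against 68.9% in labelled Erk-/-. The Cdk5 activator gene Cdk5r2 had 2.15, 10.3, 0.453 and 6.48 FPKM, and Cdk5r1 was listed at 0 in all 4 libraries.

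Ccni, an atypical cyclin gene (chromosome 5, 93610959 to 93635521), had 10.6 FPKM in wild type and 15.5 in labelled Erk-/- at GV, then 0 and 7.16 (5.95 to 8.33) at MII. As with Cdk5, wild-type MII was the low library. Cdk20 had 115, 141, 22.0 and 28.2 FPKM, 5.23-fold lower at MII in wild type and 5.01-fold in labelled Erk-/-. Cdk16 had 66.7, 47.3, 13.3 and 18.5, 5.02-fold and 2.55-fold lower. These kinases were lower at MII in both genotypes.

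Cdk14 and Cdk15 encode PFTAIRE kinases. Cdk14 had 4.92, 11.5, 0.186 and 0.190 FPKM in the order wild-type GV, labelled Erk-/- GV, wild-type MII and labelled Erk-/- MII, so its levels at MII were nearly equal. Cdk15 had 27.7 FPKM (22.5 to 28.5) in wild type and 5.73 (4.02 to 7.17) in labelled Erk-/- at GV, then 0 and 0.829 at MII. Its GV libraries were 4.84-fold apart. Ccny, the membrane-bound cyclin of CDK14 and CDK16, had 3.63, 19.8, 4.98 and 7.62 FPKM, with the GV library labelled Erk-/- above the other 3. Ccng2, which is linked to cell-cycle arrest, had 2.81, 4.97, 7.97 and 13.3 FPKM, 2.83-fold higher at MII in wild type and 2.68-fold in labelled Erk-/-.

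The 15 genes under 10 FPKM reached at most 5.17 in wild-type GV (Ccnt1), 6.57 in labelled Erk-/- GV (Cdk10), 8.23 in wild-type MII (Cdk13) and 5.69 in labelled Erk-/- MII (Cdk9). Cdk10, a kinase known to restrain ETS2, had 4.55, 6.57, 0 and 1.5 FPKM. Cdk17 had 2.95, 0.839, 3.0 and 1.20, Ccng1, a p53 target, 3.53, 0.105, 1.46 and 2.09, and Ccnj 0.871, 0.927, 1.19 and 2.23. These low genes follow no common order of libraries.

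Counted over the family, wild-type maturation left 17 of 33 genes at least 2-fold lower, against 49.6% of all 9990 genes, and 7 at least 2-fold higher, against 20.6%. Both shares, 51.5% and 21.2%, lie near those of all genes, of which 70.1% passed in either direction. Cdk4, Cdk10, Cdk15, Ccnf and Ccni, counted as lower, were listed at 0 in wild-type MII. Ccne2, counted as higher, was listed at 0 at GV in both genotypes and passed the filter only through its MII values. Without genes listed at 0 in any library, 12 of 25 members were lower and 5 higher, beside 3196 and 1457 of 6967 genes. The lower genes were 11 of 15 CDKs and 6 of 18 cyclins, and the higher ones 2 CDKs (Cdk9, Cdk13) and 5 cyclins (Ccna2, Ccne2, Ccng2, Ccnl2, Ccnt2). The median log2 ratio was -1.15 over the family and -0.97 over all genes, and by class -1.72 for 7 cell-cycle, -0.71 for 13 transcriptional and -2.32 for 13 other genes. The cell-cycle median rests on few genes and was 0.48 over the 3 of them with a mean of at least 10 FPKM. Median-of-ratios scaling, which divides each library by its median ratio to the mean library over 7085 genes, moved the median of all genes to -0.30, a shift of 0.67. The class medians became -1.01 for cell-cycle, -0.04 for transcriptional and -1.53 for other genes. It counted 10 members as higher and 15 as lower, and 42.3% of all 2-fold genes higher against 29.3% as deposited.

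In the libraries labelled Erk-/-, 15 of 33 were lower at MII (35.6% of all genes) and 8 higher (22.9%), with 58.5% of all genes in either direction. The lower genes were 7 of 15 CDKs and 8 of 18 cyclins. Cdk4, Cdk9, Ccne2 and Ccnh, counted as higher, were listed at 0 in labelled Erk-/- GV. The medians were 0.22 for cell-cycle, -0.65 for transcriptional and -1.22 for other genes, against -0.26 for all genes. The cell-cycle median depends on members with a value of 0, such as Cdk4 and Ccne2 at GV. Ccna2, Ccnd3, Ccne1 and Cdk2 are the 4 tested cell-cycle genes above 0 in every library. Their median was -0.38 in labelled Erk-/- and -0.62 in wild type, so the medians of the genotypes lie closer in these 4 genes. Cdk2 among them still differed between genotypes (-0.99 in labelled Erk-/- and -2.82 in wild type). Of the genes counted, 13 were lower in both genotypes (Ccnc, Ccne1, Ccnf, Ccni, Ccnk, Ccno, Cdk7, Cdk10, Cdk11b, Cdk14, Cdk15, Cdk16 and Cdk20) and 5 higher in both (Ccna2, Ccne2, Ccng2, Ccnt2 and Cdk9). The share of all genes in each joint pattern was not computed, so these counts show nothing particular to the family. Lower in wild type only by this rule were Cdk2, Cdk5 and Cdk12, higher in wild type only Ccnl2 and Cdk13, lower in labelled Erk-/- only Ccnl1 and Ccny, and higher there only Ccng1 and Ccnh. Cdk4 was lower in wild type and higher in labelled Erk-/-, the latter not with 10 FPKM added (log2 0.34). Under median-of-ratios scaling Cdk7 (-0.51) and Cdk12 (-0.44) were no longer counted as lower in wild type, nor Ccni (-0.82) in labelled Erk-/-.

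**Figure D4:**
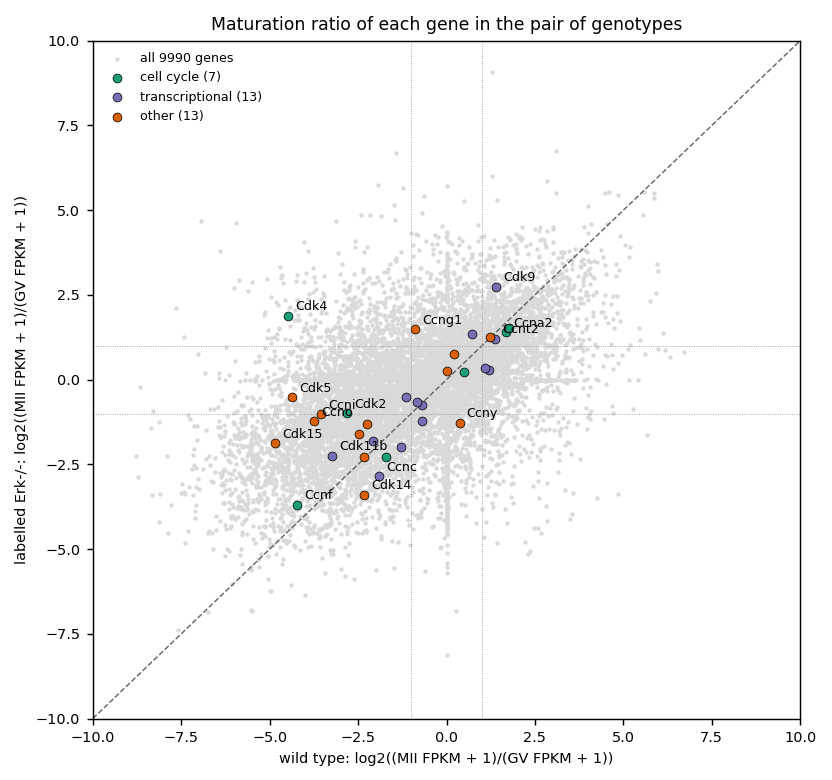
Log2 ratio of MII to GV in wild type (horizontal) and in the libraries labelled Erk-/- (vertical), for all 9990 genes in grey and the 33 cyclins and CDKs by class; dotted lines mark 2-fold and the dashed line equal ratios. Ccna2 and Ccnt2 lie near the dashed line at the upper right, while Ccno, Cdk5, Ccni and Cdk15 lie above it at the lower left, less reduced in labelled Erk-/- than in wild type.

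Between genotypes at GV, most of the family lay within 2-fold. In labelled Erk-/- GV, 3 of 33 genes were at least 2-fold higher (Ccnf, Cdk14, Ccny), against 18.4% of all genes, and 6 lower (Cdk4, Cdk9, Cdk15, Cdk17, Ccng1, Ccnh), against 22.9%, or 41.3% in either direction. Cdk4, Cdk9 and Ccnh were listed at 0 there. Of the 21 genes above 10 FPKM somewhere with usable bounds in both GV libraries, 17 had bounds that did not meet. These bounds cover uncertainty within a library only. The same count was not made over all genes, so it shows nothing particular to the family. Of the genes counted at GV, Ccny was 5.45-fold higher and Cdk15 4.84-fold lower in labelled Erk-/-, and Ccng1 (3.53 and 0.105 FPKM) 33.5-fold lower.

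At MII, Cdk5 was 33.0-fold higher in the library labelled Erk-/- (20.1 FPKM, 17.0 to 21.6) than in wild type (0.608, 0.300 to 0.900), and Ccno 6.23-fold higher (321 and 51.6 FPKM). In all, 8 of 33 genes were at least 2-fold higher, against 31.4% of all genes, and 1 lower, against 7.43%, or 38.8% in either direction. The higher genes were Cdk2 (3.34-fold), Cdk5, Cdk11b (2.62-fold) and Ccno, with Cdk4, Cdk10, Ccnf and Ccni listed at 0 in wild type. The lower one was Ccne1 (3.46 and 0.556 FPKM, 6.22-fold). By class, 1 of 13 transcriptional genes was higher and none lower (median -0.27), while 4 of 13 other genes (median 0.56) and 3 of 7 cell-cycle genes (median -0.25) were higher. With median-of-ratios scaling the numbers were 6 higher and 7 lower, Cdk2 (log2 0.74) and Cdk11b (0.76) no longer counted, and Ccnt2 (-1.42) and Cdk8 (-1.11) counted as lower. Under the same scaling 59.1% of all 2-fold genes were higher, against 80.9% as deposited, and the median of all genes moved from 0.31 to 0. Of the 10 oocyte markers, 6 were, like Cdk5 and Ccno, at least 2-fold higher in labelled Erk-/- MII, and none was 2-fold lower (median 1.58). The other 4 lay slightly below wild type, namely Gdf9 (-0.10), Ddx4 (-0.50), Oosp1 (-0.25) and Dppa3 (-0.05). The markers summed to 12532 FPKM in wild-type MII and 13617 in labelled Erk-/- MII. The part of the markers in the result was not tested.

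Set against each other, the MII to GV ratio was at least 2-fold greater in labelled Erk-/- than in wild type for 8 of 33 genes, where 41.2% of all genes did so. Of these, Cdk5 (log2 difference 3.84), Ccno (2.52), Ccng1 (2.36) and Cdk2 (1.84, but 0.65 with 10 FPKM added) were above 0 in all 4 libraries. The other 4 (Cdk4, Cdk9, Cdk15 and Ccni) were listed at 0 in at least 1 library, so the added constant sets the size of their difference. For Cdk4 it was 6.37 with 1 FPKM added, 12.5 with 0.1 and 1.99 with 10, and Ccni (0.47) was no longer counted with 10. A lower level of labelled Erk-/- at GV enters the difference for Cdk4 (log2 ratio at GV -4.48), Cdk15 (-2.09), Ccng1 (-2.04), Cdk9 (-1.24) and Cdk2 (-0.81). It was smaller for 2 (Ccny at -1.64 and Cdk14 at -1.07), where 18.8% of all genes did so and 60.1% passed in either direction. The class medians were -0.25 for cell-cycle, -0.06 for transcriptional and 0.87 for other genes, beside 0.59 for all genes. Under median-of-ratios scaling the ratio was at least 2-fold greater for 7 of 33 and at least 2-fold smaller for 8. Of all 9990 genes, 3263 and 2653 were so.

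**Figure D5:**
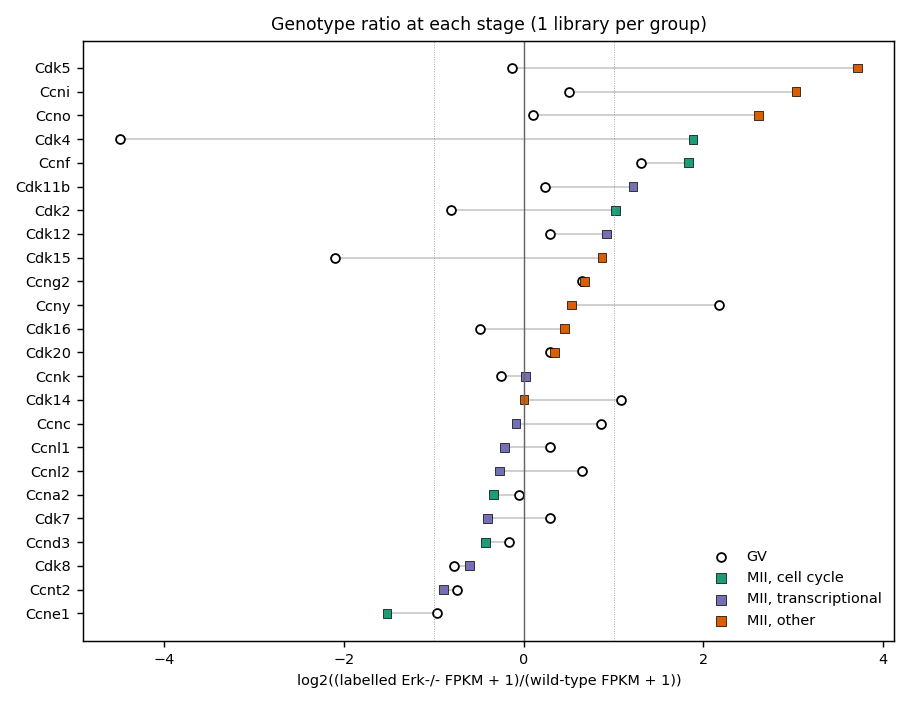
Log2 ratio of the libraries labelled Erk-/- to wild type at GV (open circles) and at MII (squares, coloured by class) for the 24 genes that reached 10 FPKM, ordered by the MII ratio; dotted lines mark 2-fold. Cdk5 and Ccno lie near 0 at GV and at 3.71 and 2.62 at MII, while Ccne1 lies below 0 at both stages.

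Regulators of these kinases were followed from lists of the same pathway, beside 49.6% of all genes lower and 20.6% higher at MII in wild type, and 35.6% and 22.9% in labelled Erk-/-. Of 8 CDK inhibitor genes 6 were tested, and in wild type 3 were lower and 2 higher at MII. Cdkn1b, which encodes p27, had 11.4 FPKM in wild type and 11.5 in labelled Erk-/- at GV, then 0 and 7.55 at MII, the order seen in Cdk5 and Ccni. Cdkn3 had 12.3 FPKM in wild-type GV and was listed at 0 in the other 3. Of 12 activators and assembly factors tested, 9 were lower and 2 higher in wild type, the higher ones being the CDK-binding subunits Cks1b (89.5 and 305 FPKM) and Cks2 (323 and 677). In labelled Erk-/- 8 were lower and none higher, with Cks1b at 173 and 244 FPKM and Cks2 at 316 and 583.

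Downstream of the cell-cycle kinases, the RB and E2F family had 4 of 10 genes higher and 2 lower in wild type (median 0.71), where 20.6% of all genes were higher and 49.6% lower (median -0.97). In labelled Erk-/- it had 3 higher and 2 lower (median 0.05), where 22.9% and 35.6% of all genes were. Rb1, the pocket protein that D cyclin kinases phosphorylate, had 18.3 FPKM in wild type and 12.6 in labelled Erk-/- at GV, then 52.4 and 49.0 at MII, so both MII libraries lay above both GV libraries. Tfdp1, the partner of E2F proteins, had 8.50, 21.5, 99.1 and 65.2 FPKM, and E2f2 23.4, 23.2, 1.87 and 17.8. Of 10 genes listed for cyclin turnover, 4 were higher and 5 lower in wild type. The list includes Cul3, Ambra1 and Usp28, which are not subunits of SCF ligases. The SCF scaffold Cul1 had 336, 267, 840 and 609 FPKM, and Skp1a, the adaptor that holds F-box proteins such as cyclin F, 1715, 1302, 174 and 957.

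Partners of the transcriptional CDKs differed by complex, and the shares of all genes given above (49.6% lower and 20.6% higher in wild type, 35.6% and 22.9% in labelled Erk-/-) are the background here too. Of 13 genes of P-TEFb control and elongation, 10 were lower and none higher in wild type (median -2.15), and 8 lower and 1 higher in labelled Erk-/- (median -1.96). Of the 4 Mediator kinase module partners none was lower, 1 was higher in wild type and 2 in labelled Erk-/-. Larp7, which holds P-TEFb in its inactive particle, had 61.6 FPKM in wild type and 20.1 in labelled Erk-/- at GV, then 0 and 1.25 at MII. Nelfe, a subunit of the pausing factor, had 44.7, 92.2, 0.863 and 3.24. Of the 7 core TFIIH genes, 4 were lower and 2 higher in each genotype. Gtf2h5 had 64.8, 71.4, 0 and 29.3 FPKM and Gtf2h3 4.99, 0.842, 36.5 and 31.1, so subunits of 1 complex went in opposite directions.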

How the data were processed

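RNA of 4 libraries of mouse oocytes was sequenced in pairs on an Illumina HiSeq, per the labels' protocols. The authors deposited FPKM with a lower and an upper bound per gene, per the file headers. CASAVA 1.8, TopHat and build mm9 are named in the submitters' processing notes. For the FPKM program, its annotation, the level of the bounds and any strand or poly(A) selection, the record is: not given in the sources used here. FPKM holds no counts, so depth is unknown. From the width of the bounds over 2490 genes, depth relative to wild-type GV was 1.04 in wild-type MII, and 0.808 (GV) and 1.01 (MII) in labelled Erk-/-. Bounds that do not enclose their value, as for Ccno in 3 libraries, are not quoted.

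Symbols on several rows (260 symbols, 504 extra rows, 0 of them in the family) were summed. Locus starts count from 0, judged by gene length (9170 of 21279 genes against 558), so 1 was added. Of the 39 loci, 9 overlap another gene. Ratios, counts and size factors were computed with Python 3.11.15, numpy 2.4.6 and pandas 2.3.3. The ratios and the 2-fold rule were checked on simulated data, and the size factors were not. GENCODE M21 gave mRNA ends by symbol for all 39 genes, taking the transcript of longest coding sequence with at least 100 bases after it. Genes were named where they reached 10 FPKM in a library, or as partners or list members. The members, lists and rules were chosen with earlier results of these data known. One further gene looked at in checking the genotype is not reported here.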

Additional observations from a re-analysis of the deposited data

Results flagged for a closer look

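Cdk4 was the only 1 of the 33 tested cyclins and CDKs that was at least 2-fold lower at MII in wild type and at least 2-fold higher in the libraries labelled Erk-/- (log2 difference 6.37). Its level was 21.4 FPKM at GV in wild type and 2.69 at MII in labelled Erk-/-, and it was listed at 0 in the other 2 libraries. With those values at 0, the constant sets the size: the log2 difference was 12.5 with 0.1 FPKM added and 1.99 with 10, and with 10 the ratio in labelled Erk-/- (0.34) was no longer counted as higher. The difference was not tested, since each group is 1 library. How many of all genes had such opposite directions was not computed.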

How the results depend on the processing

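No paired analysis was possible because each group is 1 library, and no library can be left out. Of 70 counts of higher or lower members under 7 alternatives, 43 stayed within 1.5 times the value reported and 27 did not. With 10 FPKM added, the numbers higher were 3 in wild-type maturation, 1 in labelled Erk-/- maturation (9 lower), 1 at GV (2 lower), 2 at MII (0 lower) and 4 for the difference of ratios (0 lower). Over all 9990 genes at this setting, 1098 were higher and 2883 lower, 921 and 1881, 634 and 804, 867 and 132, and 1826 and 773 in the same order. At a mean of at least 10 FPKM, 15 members were left, with 3 higher and 9 lower, 2 and 9, 1 and 0, 4 and 0, and 2 and 0 in the same order. Of the 5294 genes left there, 1218 were higher and 2553 lower, 1170 and 1854, 647 and 788, 1754 and 281, and 2070 and 742. The wild-type cell-cycle median then turned from -1.72 to 0.48 on 3 genes. With 0.1 FPKM added 4 members were lower at MII (978 of all 9990 genes), and without a filter 2 (921 of 23309). Median-of-ratios scaling gave 7 lower at MII and 8 differences at least 2-fold smaller, beside 1704 and 2653 of all 9990 genes. Without genes listed at 0, 25 members were left. Of these, 4 were higher in labelled Erk-/- maturation, 2 lower at GV, 4 higher at MII and 4 at least 2-fold greater in the difference. The matching numbers over 6967 genes were 1449, 1183, 1980 and 2538. Of 105 class medians, 85 moved by less than 1.5-fold and 19 by more or across 0. Of 775 single-gene ratios, 729 stayed on their side of 2-fold, 46 crossed it, and none that passed it changed sign. The filters, leaving out genes listed at 0 and the highest row per symbol cannot change these ratios, so those stayed by construction. With 0.1 FPKM added 7 crossed and 113 stayed, and with 10 FPKM 25 crossed and 95 stayed. With median-of-ratios scaling 14 crossed and 106 stayed. Taking the highest row per symbol changed no count.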
